A study of Mus musculus with 10 samples.

Results

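The comparison was between mouse oocytes from which the meiotic spindle had been removed, called cytoplasts, and intact oocytes of the same stage, and it covered 7 of the series' 10 expression arrays. The arrays were taken by their titles: 4 were of cytoplasts (replicates 1 to 4) and 3 of intact MII oocytes (replicates 2 to 4). The other 3 arrays, of the isolated spindle-chromosome complex, entered the estimate of the spread and stand beside the results only where named. All groups came from superovulated B6D2F1 females, which received equine chorionic gonadotropin and, 48 h later, 5 IU of human chorionic gonadotropin; 16 h after that injection the oocytes were collected and stripped of cumulus cells with hyaluronidase. The cytoplasts and spindles were obtained by microsurgery. The labels call the replicates biological but do not say how many oocytes or animals each holds, so the p-values here reflect only how these samples spread, which may be partly technical. A group of oocytes operated on without loss of the spindle was not analysed here. The study asked whether maternal messenger RNAs gather at the meiotic spindle, and the question here was what the oocyte is left with once the spindle is gone.

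A mammalian egg waits for fertilization in metaphase of meiosis II (MII) with a compact, barrel-shaped spindle under the cell cortex and a very large cytoplasm packed with stored maternal messenger RNA. Transcription is silent at this stage, so the RNA measured had been made earlier, during oocyte growth. The spindle, its chromosomes and the small volume around it are a minor share of the cell, and removing them leaves a cytoplast of the kind used as a recipient in nuclear transfer. A fixed mass of labelled RNA was put on each array after 2 rounds of amplification, so each value is an amount relative to the rest of that sample's RNA, and a loss shared by all transcripts cannot be seen.

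The arrays differed in the brightness of their added controls, and that brightness was not balanced between the groups. The added hybridisation controls are transcripts foreign to the mouse (18 probe sets). They had a mean log2 intensity of 10.68, 10.27, 9.91 and 11.18 on cytoplast arrays 1 to 4 and of 11.11, 9.87 and 11.32 on MII oocyte arrays 2 to 4. Cytoplast 4 and MII oocytes 2 and 4 are called the brighter arrays below and the other 4 the dimmer ones. The dimmer kind thus held cytoplasts 1 to 3 but only MII oocyte 3. Cytoplast 1 lay about midway between the 2 kinds. Between the 2 kinds, with the group kept in the limma fit, 1674 of 23737 probe sets (7.05%) passed an adjusted p of 0.05. That fit held all 10 arrays, with spindle-chromosome arrays 1 and 2 (controls at 10.00 and 10.06) among the dimmer and array 3 (11.29) among the brighter. None of 11 measures taken once per array separated cytoplast from MII oocyte by an exact two-sided permutation test, in which 35 splits allow no p below 0.0286. With so few splits, this does not show that the groups were alike in these measures. The 95th percentile of the intensities was 579.6 ± 46.2 (SD, n = 4) in the cytoplasts and 653.1 ± 75 (SD, n = 3) in the MII oocytes (exact permutation p = 0.171). The difference between the 3′ and 5′ actin controls, a sign of RNA length after amplification, was 4.62 ± 0.687 log2 units against 3.85 ± 0.544 (exact permutation p = 0.171). The 2 differences between groups moved with single arrays: that of the 95th percentile was -73.5 intensity units and ran from -115.9 (without MII oocyte 3) to -44.6 (without MII oocyte 4), and that of the actin controls was 0.762 and ran from 0.499 (without MII oocyte 3) to 1.08 (without cytoplast 4).

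No probe set passed the test between cytoplast and intact oocyte. Of 23737 probe sets tested with limma, 0 were higher (0%) and 0 lower (0%) at a Benjamini-Hochberg adjusted p of 0.05, and the smallest adjusted p was 0.926. At an unadjusted p under 0.05, limma gave 276 probe sets higher in the cytoplast (1.16%) and 778 lower (3.28%). The groups' arrays did not overlap for 448 probe sets higher in the cytoplast (1.89%) and for 910 lower (3.83%); after quantile normalization these counts were 652 and 462, and after cyclic loess 594 and 540. The counts at unadjusted p moved with single arrays: lower probe sets numbered 1866 without MII oocyte 3, 1200 without cytoplast 4 and 438 without cytoplast 2, and the higher ones numbered 452 without cytoplast 4 and 170 without cytoplast 1. In none of these leave-one-out fits did a probe set pass the adjusted threshold; the smallest adjusted p among them was 0.143, without cytoplast 4. With brighter and dimmer arrays as a block, an alternative chosen after the data were seen, 0 probe sets passed (limma, smallest adjusted p = 0.690), and 555 were higher and 1113 lower at unadjusted p.

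**Figure D1:**
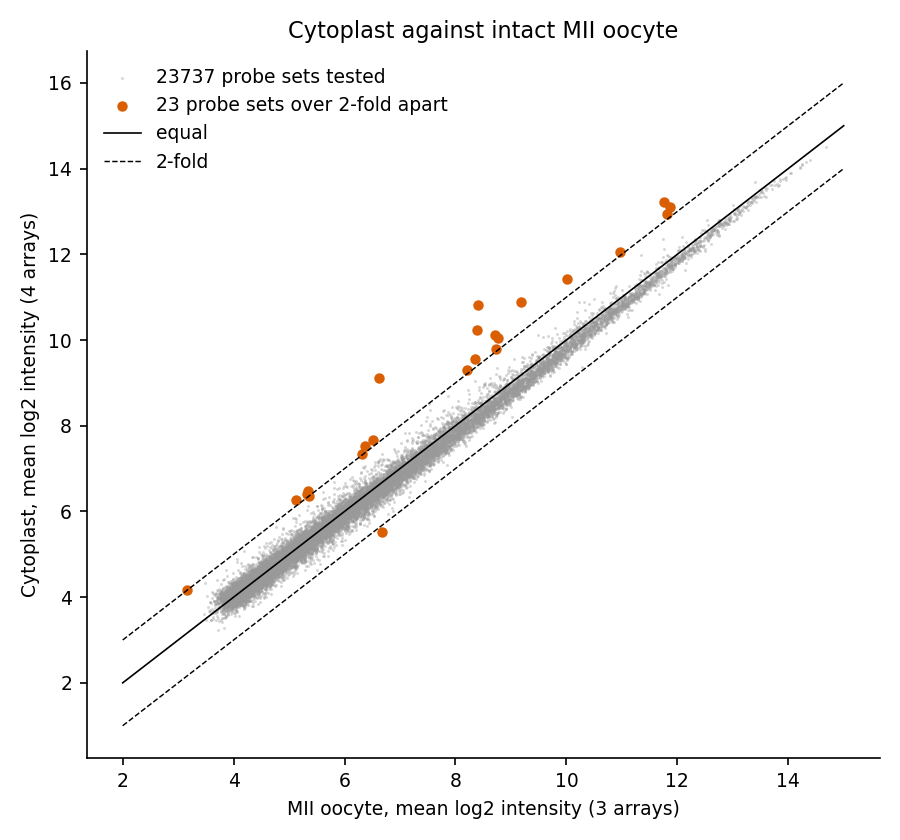
Mean log2 intensity of each of 23737 probe sets on the 4 cytoplast arrays (vertical axis) against that on the 3 MII oocyte arrays (horizontal axis). The solid line marks equal values and the dashed lines a 2-fold difference; the 23 orange points lie beyond 2-fold, 22 above the lines and 1 below.

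Absence of a call is not a measure of likeness, so the interval of each difference was taken from the same fit. For 23029 probe sets (97%) the 95% interval of the difference lay inside a 2-fold change in either direction, and for 17322 (73%) inside a 1.5-fold change. The 2-fold share leans on dim probe sets, of which 13555 had a mean log2 intensity of 4 to 6. It was 99.5% below 4, 98.5% from 4 to 6, 94.2% from 6 to 8, 93.3% from 8 to 10 and 96.8% above 10. At 1 probe set per gene, 12343 of 12713 genes (97.1%) had an interval inside 2-fold. For 12458 genes (98%) the lower end of the interval lay above a halving in the cytoplast. The intervals had a median half-width of 0.32 log2 units, which is the precision that 4 arrays against 3 gave here. Most differences were smaller: their 5th and 95th percentiles were -0.35 and 0.23 log2 units, and only 23 probe sets (0.0969%) differed by more than 2-fold in their means.

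The differences leaned slightly to the negative side, and more so among brighter probe sets. The median over all probe sets was -0.05 log2 units. It was 0.01 for the 1328 probe sets with a mean log2 intensity below 4, -0.10 for the 4910 between 6 and 8, and -0.18 for the 3944 above 8. After quantile normalization, which gives every array the same distribution of values, the median of those 3944 was -0.02, and after cyclic loess it was also -0.02. The counts at unadjusted p then stood at 520 higher and 426 lower with quantile normalization, so higher probe sets then outnumbered lower ones.

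The mean distance between a cytoplast and an MII oocyte array lay between the mean distances within the 2 groups. Distance was taken as the root mean square log2 difference between 2 arrays over all probe sets tested. It averaged 0.333 over the 6 pairs of cytoplast arrays (0.233 to 0.442), 0.419 over the 3 pairs of MII oocyte arrays (0.314 to 0.476) and 0.371 over the 12 pairs of a cytoplast with an MII oocyte (0.275 to 0.522). Pearson's r over the same probe sets, which share each array's overall brightness profile, averaged 0.986, 0.980 and 0.985 for these kinds of pair.

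Each of the 3 MII oocyte arrays had a cytoplast array as its nearest among the 7, but for 2 of them the margin was small. MII oocyte 3 lay nearest cytoplast 3 (0.275). MII oocytes 2 and 4 lay nearest cytoplast 1 (0.3125 and 0.3127), hardly closer than to each other (0.3142). With the filter at the 75th percentile they were nearest each other (0.346, against 0.355 and 0.352 to cytoplast 1). Cytoplast 4 in turn lay nearest MII oocyte 2 (0.318), and only cytoplasts 1, 2 and 3 lay nearest another cytoplast. Distances followed the brightness of the controls within groups: pairs of 1 group averaged 0.273 when both arrays were of the same kind by the controls (4 pairs) and 0.433 when they were not (5 pairs). Pairs between groups averaged 0.337 when of the same kind (5 pairs) and 0.395 otherwise (7 pairs). The part of control brightness in these distances was not tested beyond these values.

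**Figure D2:**
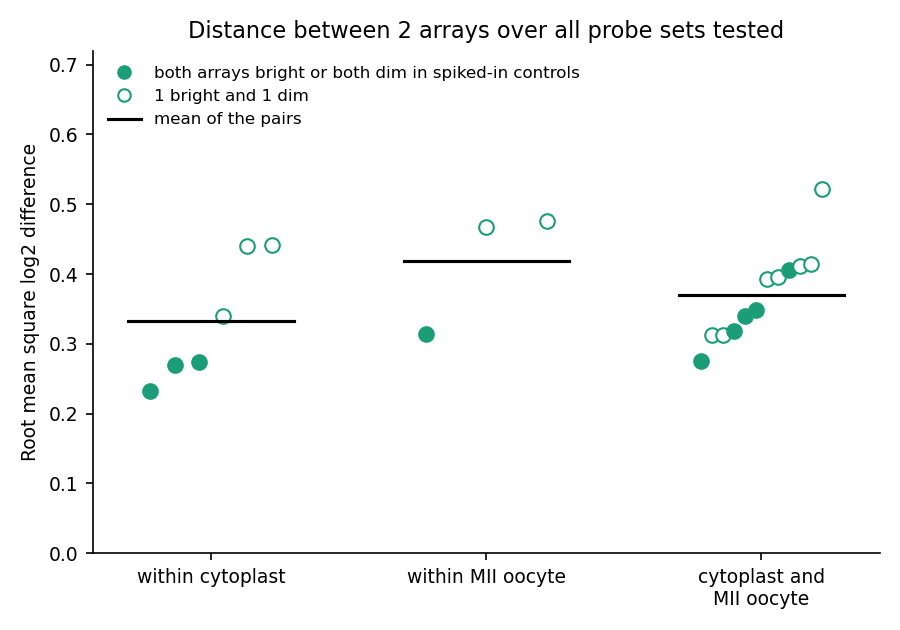
Root mean square log2 difference over 23737 probe sets for each pair of arrays, by kind of pair; filled points are pairs of 2 brighter or 2 dimmer arrays by the added controls, open points pairs of 1 of each, and the bars are means. Pairs of a cytoplast with an MII oocyte span 0.275 to 0.522 and pairs within groups 0.233 to 0.476. The closest pair is within a group and the most distant between groups.

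For scale, the isolated spindle-chromosome complex, measured on 3 arrays of its own, was compared with each group in the same fit; each of these comparisons shares a group of arrays with the one described here. Against the cytoplast it had 1599 probe sets higher (6.74%) and 65 lower (0.274%), and the root mean square of the differences between group means was 0.351. Against the intact oocyte it had 10 higher (0.0421%) and 0 lower, with 2039 higher (8.59%) and 832 lower (3.51%) at unadjusted p, and a root mean square of 0.280. For the cytoplast against the intact oocyte that root mean square was 0.192.

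The main oocyte markers were detected in both groups. Of 72 oocyte-specific and maternal-effect genes measured, 54 lay above the level of genes of other tissues (100 to 120 intensity units, depending on the array) on all 7 arrays and 10 on none. Gdf9, a growth factor that oocytes secrete to cumulus cells, read 6908, 5613, 5857 and 8748 intensity units on cytoplast arrays 1 to 4 and 7225, 5869 and 8307 on MII oocyte arrays 2 to 4. The groups overlapped fully and the difference was -0.08 log2 units (SE 0.173; 95% interval -0.46 to 0.30). Dppa3, a maternal factor that protects DNA methylation in the zygote, read 1392, 1334, 1371 and 1601 against 1545, 1609 and 1727, a difference of -0.19 (SE 0.115). Its cytoplast 4 value lay within the range of the intact oocytes.

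Mos, the kinase that holds the oocyte at metaphase, varied more within the groups than between them. It read 4226, 2003, 2131 and 8904 in the cytoplasts and 5734, 2229 and 7361 in the MII oocytes (difference -0.35, SE 0.502). The high values were those of cytoplast 4 and MII oocytes 2 and 4, which are the 3 brighter arrays. Bmp15, the partner of Gdf9, had the same arrangement, with 436, 312, 394 and 850 against 704, 373 and 764 (difference -0.34, SE 0.337); a dim probe set of it, above the level of other tissues on 1 array, differed by 0.21 (SE 0.194). With brighter and dimmer arrays as a block the differences were 0.17 for Mos and 0.05 for Bmp15.

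The zona pellucida genes encode the coat of the oocyte. Zp2 read 701, 531, 499 and 1056 in the cytoplasts and 792, 2377 and 1043 in the MII oocytes, so that a single array, MII oocyte 3, stood well above the rest. Its difference was -0.91 log2 units (SE 0.344; limma adjusted p = 0.926), and without MII oocyte 3 it was -0.45. Zp1 (difference -0.36, SE 0.231) and Zp3 (-0.45, SE 0.320) also overlapped between the groups. Of the other oocyte markers, Oosp1, an oocyte-secreted protein, differed by -0.15 (SE 0.229), Nlrp5, a subunit of the subcortical maternal complex, by -0.33 (SE 0.285), and H1f8, the oocyte linker histone, by -0.29 (SE 0.285). All 10 of these markers lay above the level of other tissues on at least 3 of 4 cytoplast and on all 3 MII oocyte arrays. Others did not: Cd9, a membrane protein needed for sperm fusion, lay above it on 0 of 7 arrays. Izumo1r, the sperm receptor Juno, lay above it on 2 of 4 cytoplast and 0 of 3 MII oocyte arrays, and Kit, the receptor of stem cell factor, on 0 of 4 and 1 of 3.

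Markers of cumulus and granulosa cells, the somatic cells around the oocyte, lay mostly under that floor. Of 20 measured, 0 lay above it on all 7 arrays and 17 on no array, and the mean log2 intensity of the list ranged from 5.14 to 5.25 in the cytoplasts and from 5.12 to 5.20 in the MII oocytes. Genes of other tissues gave 5.41 to 5.49 and 5.39 to 5.43. In bulk samples fewer cells and less RNA per cell cannot be told apart.

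Some genes had no overlap between groups although none passed the adjusted threshold. For the genes named from here on, another probe set above the floor on at least 1 array is given where its sign differed; probe sets under the floor on every array are given only for Arid4a and Atrx. Over 12713 genes, this held for 214 with higher (1.68%) and 572 with lower (4.5%) values in the cytoplast. The genes below are those with the smallest unadjusted p among them, and each had an adjusted p of 0.926 (limma). On the higher side, all but 2 of the 10 leading genes lay at or under the level of other tissues on every array, and only Ina and Rusc1 lay above it in the cytoplasts.

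Ina, a neuronal intermediate filament protein, read 240.1, 218, 216 and 238 in the cytoplasts and 143, 108 and 193 in the MII oocytes. The lowest cytoplast array lay above the highest MII oocyte array, and the difference was 0.66 log2 units (SE 0.194; limma adjusted p = 0.926). Another probe set of Ina, above the floor on all 7 arrays, differed by only 0.09 (SE 0.167). Rusc1, an adaptor protein, read 176, 153, 146 and 131 against 116, 105 and 91.4. All 3 MII oocyte values were not above the level of other tissues, so in the means of these arrays the cytoplast was at least 1.33-fold higher. The interval of the difference from limma reached lower, from 1.13-fold to 1.87-fold (adjusted p = 0.926). The value of 1.33 is therefore no lower limit beyond these arrays. Bounds of this kind, here and below, concern the means of these arrays only and leave out sampling error. Gtf2f1, a subunit of the general transcription factor TFIIF, had the largest difference of the 10 at 1.09 (SE 0.237), but it lay under that level in both groups and no fold is given.

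On the lower side, Gjb2, the gap junction protein connexin 26, read 162, 177, 181 and 168 in the cytoplasts and 225, 264 and 242 in the MII oocytes. The spread within each group was narrow and the difference was -0.50 (SE 0.106; limma adjusted p = 0.926). Capza2, the alpha subunit of the protein that caps actin filaments, read 973, 791, 813 and 1008 against 1389, 1277 and 1230 (difference -0.54, SE 0.132). Its values in both groups lay well above the floor, and its difference was -0.37 after quantile normalization.

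Prps1l3, of the family that makes phosphoribosyl pyrophosphate, read 313, 317, 380.1 and 374 against 556, 473 and 515 (difference -0.58, SE 0.134). Slc5a12, a sodium-coupled lactate carrier, read 194, 199, 228 and 190.4 against 359, 244 and 311 (difference -0.57, SE 0.137). Its other probe set, also above the floor on all 7 arrays, had the opposite sign (0.16, SE 0.238), so no direction is given for Slc5a12. Taf2, a subunit of the transcription factor TFIID, read 78.6, 82.7, 98.3 and 83.3 against 122, 140.0 and 119, under the floor in all cytoplasts and over it in all MII oocytes, at least 1.20-fold lower in the cytoplast. Zbtb14 and Arid4a, at least 1.15-fold and 1.05-fold lower, were above the floor on 2 of 3 MII oocyte arrays, and the other probe sets of Arid4a did not share its direction (0.41 and 0.20).

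**Figure D3:**
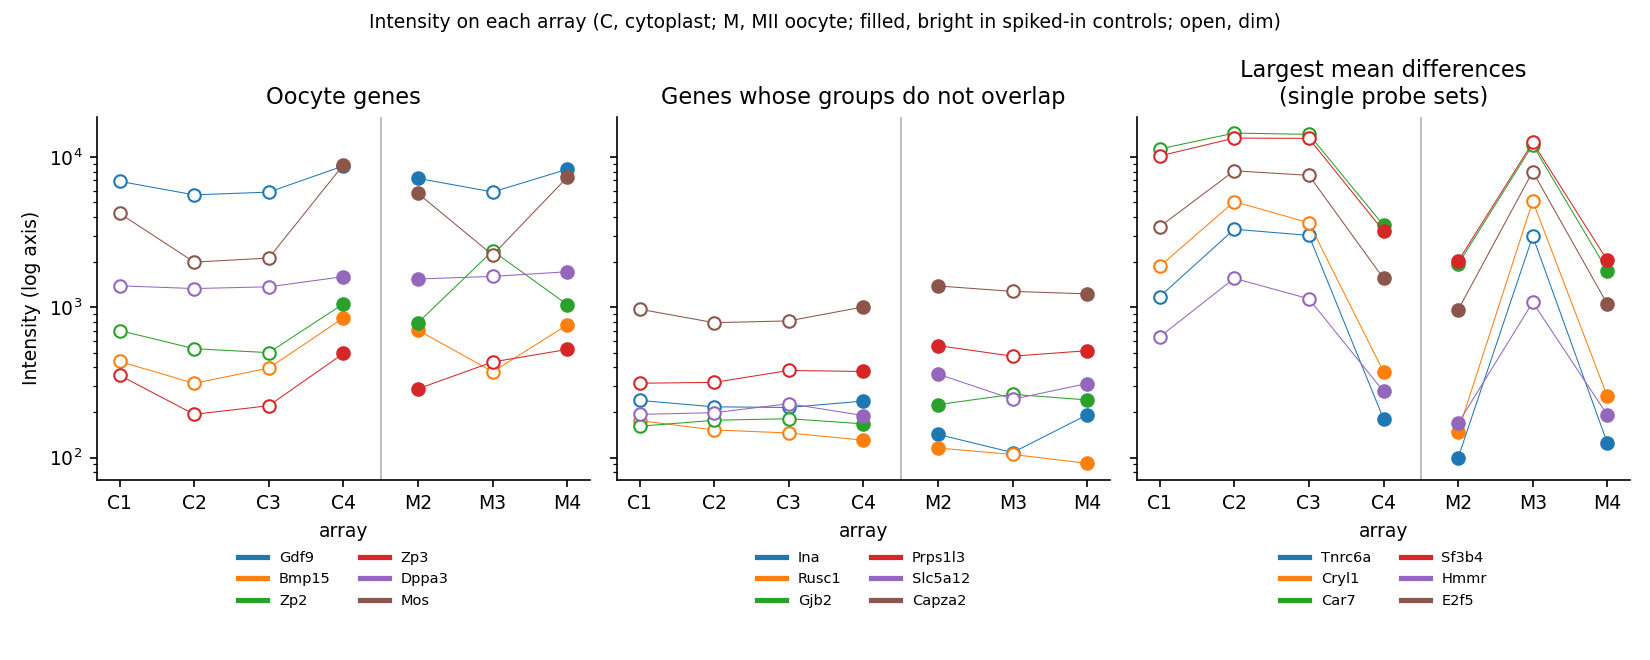
Intensity on a log axis for single genes on cytoplast arrays 1 to 4 (C) and MII oocyte arrays 2 to 4 (M); lines only join the points of 1 gene, and filled points are the 3 brighter arrays by the added controls. Mos and Bmp15 are high on filled points in both groups, Capza2 and Gjb2 lie lower on all C than on all M arrays, and the probe sets in the right panel are high on open points in both groups.

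The largest mean differences had another arrangement. Of the 23 probe sets more than 2-fold apart, 22 were higher in the cytoplast. For 19 of those every dimmer array of the 7 cytoplast and MII oocyte arrays lay above every brighter one. How many of all probe sets had this arrangement was not counted. Cytoplasts 1 to 3 but only MII oocyte 3 were dimmer, so a pick by the difference of means favours probe sets high on dimmer arrays. A probe set listed for Car7, a carbonic anhydrase, read 11349, 14468, 14200 and 3524 in the cytoplasts and 1940, 12068 and 1758 in the MII oocytes. Its mean difference was 1.46 log2 units (SE 0.937), but MII oocyte 3 stood with the 3 dimmer cytoplasts and cytoplast 4 with the 2 brighter MII oocytes. One listed for Tnrc6a, a protein of microRNA-mediated silencing, read 1178, 3313, 3015 and 181 against 99.7, 2978 and 125 (difference 1.86, SE 1.40). On spindle-chromosome arrays 1 to 3 Car7 read 12541, 3398 and 618.5 and Tnrc6a 1409, 278 and 46.4. Array 2, dimmer by the controls, thus lay under cytoplast 4 for Car7 and over it for Tnrc6a.

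Within the 4 dimmer arrays these differences were 0.14 for Car7 and -0.39 for Tnrc6a, and within the 3 brighter ones 0.93 and 0.70. In the fit with both terms, 18 of the 23 probe sets passed for brighter against dimmer arrays, beside 1674 of all 23737 (7.05%). For cytoplast against MII oocyte 0 passed. The pick of the 23 by their means favours the former, as said above. The groups overlapped for all but 2 of the 23: Gtf2f1, described above, and a probe set of Gphn, the scaffold protein gephyrin, which lay under the floor. Of the 23, 14 (60.9%) carried an identifier of the kind that Affymetrix gives to probes that match more than 1 transcript, against 24.7% of all probe sets kept.

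Tpx2, which activates Aurora A on spindle microtubules, showed how probe sets of 1 gene could disagree. Its brightest probe set read 1717, 1192, 1216 and 2544 in the cytoplasts and 2613, 1027 and 2356 in the MII oocytes (difference -0.22, SE 0.329). A second probe set of it was among the 22, with a difference of 1.40 (SE 1.13), and another with 1.07 (SE 0.945). No direction is given for Tpx2.

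Genes were then read by their role, in lists chosen with earlier results of these arrays known. No member of any of the lists passed the adjusted threshold in either direction (0% of all probe sets), so each list is described by its counts beside the median of all 12713 genes, -0.06. Over probe sets the median was -0.005 at a mean log2 intensity of 4 to 6, -0.10 at 6 to 8, -0.19 at 8 to 10 and -0.16 above 10. The oocyte-specific list, for instance, averaged 9.35 to 9.81 on the 7 arrays. The share of negative differences over all genes is not given, so a negative median or count of signs is not read as particular to a list. Values of single members are given for the few with the smallest p of each list and for fixed markers. The signs of the medians hold for the values as deposited; those that turned after quantile normalization are named, and cyclic loess turned no other list. Single arrays moved the medians: without MII oocyte 3 that of spindle assembly and motors was -0.21, of the meiotic cell cycle -0.22, of mRNA storage -0.26 and of the actin cortex -0.19, and without MII oocyte 4 they were -0.06, -0.05, -0.05 and -0.02. With each array left out in turn, the median of calcium signalling ran from -0.07 to 0.01, that of the cumulus markers from 0.00 (negative) to 0.06 and that of other tissues from -0.03 to 0.02; in the other role lists it stayed negative. Within the dimmer arrays the medians were positive for tubulins (0.09), mRNA storage (0.13), the actin cortex (0.08), calcium signalling (0.06), mitochondrial dynamics (0.03), nuclear pore (0.03), chromatin (0.02) and the meiotic cell cycle (0.01), and within the brighter ones for spindle assembly (0.02) and tubulins (0.02).

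Many, but not all, transcripts of the spindle machinery were detected in the cytoplast. Of 45 genes of spindle assembly and motors, 27 lay above the level of other tissues on all 7 arrays and 15 on none. Of the 45, 34 had negative and 11 positive differences, with a median of -0.14 (-0.02 after quantile normalization). Kif11, the kinesin that pushes spindle poles apart, read 798, 658, 879 and 950.2 in the cytoplasts and 1024, 991 and 1309 in the MII oocytes. The groups did not overlap, and the difference was -0.43 (SE 0.173; limma adjusted p = 0.926). Ckap2, a microtubule-stabilising protein, differed by -0.35 (SE 0.153) and Aurka, the Aurora A kinase, by -0.28 (SE 0.236). Of 14 tubulin genes 6 lay above that level on all 7 arrays and 8 on none. The 14 had a median of -0.07, with Tubb5 at -0.33 (SE 0.195) and its groups overlapping.

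Genes of the microtubule organising centre had the lowest median of the role lists after quantile normalization. Of 32, 27 were negative, with a median of -0.18 as deposited and -0.10 after quantile normalization. Cep55, a midbody protein, read 2748, 2262, 2392 and 2964 against 3563, 3055 and 3558 without overlap (difference -0.39, SE 0.129; limma adjusted p = 0.926). Cep192, which recruits pericentriolar material, lay mostly under the floor (difference -0.45, SE 0.154).

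Of 46 kinetochore and checkpoint genes 35 were negative (median -0.13). Cenpc1, which links the centromere to the kinetochore, read 303, 297, 371 and 291 against 394, 489 and 409 (difference -0.45, SE 0.144). Bub1b, the checkpoint kinase BubR1, read 12720, 10785, 10595 and 17408 against 16805, 10279 and 15446, with overlap and a difference of -0.14 (SE 0.207). Of 31 genes of cohesin, condensin and shugoshin 23 were negative (median -0.16), with Ncapd3 of condensin II at -0.33 (SE 0.125). Of 40 genes of the meiotic cell cycle 30 were negative (median -0.10); Ccne2, cyclin E2, was under the floor in all cytoplasts and at least 1.12-fold lower there.

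Stored-message and protein-making genes also had negative medians as deposited. Of 53 genes that store, polyadenylate or degrade mRNA 42 were negative, with a median of -0.14 that was 0.00 and positive after quantile normalization. Cnot6, a deadenylase of the CCR4-NOT complex, read 465, 399.6, 437 and 379.6 in the cytoplasts and 541, 569.7 and 565 in the MII oocytes. Its groups did not overlap (difference -0.41, SE 0.112; limma adjusted p = 0.926). Another probe set of it above the floor differed by -0.11 (SE 0.133). Ythdf3, a reader of methylated adenosine in mRNA, differed by -0.29 (SE 0.112).

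The 38 genes of translation initiation had a median of -0.12 and the 39 cytosolic ribosomal protein genes one of -0.15, with Rps7 at -0.29 (SE 0.116). The 82 genes of the endoplasmic reticulum and secretion had a median of -0.12. Among them Dnajc3, a co-chaperone of the stress response, read 670, 758, 875 and 684 against 983, 1079 and 1035 without overlap (difference -0.47, SE 0.137). Its second brightest probe set had the opposite sign (501.8 against 421.1 in the means; 0.26, SE 0.188) and a further one, mostly above the floor, differed by -0.08 (SE 0.275), so no direction is given for Dnajc3.

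Organelle and nuclear genes gave similar values. The 63 genes of oxidative phosphorylation had a median of -0.11, with Atp5c1 of the ATP synthase at -0.32 (SE 0.172). The 88 genes of mitochondrial dynamics, import and ribosomes had a median of -0.12, which was 0.00 and positive after quantile normalization, with Mrps2 of the mitochondrial ribosome at -0.26 (SE 0.109). The 40 proteasome genes had a median of -0.14 (Psma6 -0.28, SE 0.139) and the 57 genes of the nuclear pore, lamina and Ran one of -0.13 (Xpo1, an export receptor, -0.33, SE 0.135).

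The 74 splicing genes had a median of -0.15, with 0 higher and 11 lower at an unadjusted p under 0.05, beside 118 (0.928%) and 477 (3.75%) of all 12713 genes. Hnrnph1, a splicing regulator, read 227, 241, 260.3 and 313 against 379, 394 and 305 (difference -0.47, SE 0.153), so cytoplast 4 lay above MII oocyte 4. Srsf10, another, differed by -0.36 (SE 0.125). The 67 genes of DNA replication and repair had a median of -0.15 (Dbf4, the activator of the Cdc7 kinase, -0.26, SE 0.112). The 77 of chromatin and histones had a median of -0.08, with Cbx1, a heterochromatin protein, at -0.40 (SE 0.146) and Chd4, a nucleosome remodeler, at 0.55 (SE 0.212).

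The 65 genes of the actin cortex and cytokinesis had a median of -0.08 and the 34 of calcium signalling and egg activation one of -0.03; both were positive after quantile normalization (0.01 and 0.03). Actb, beta-actin, read 444, 270.4, 273 and 226 in the cytoplasts and 222, 128 and 342 in the MII oocytes, a difference of 0.46 (SE 0.303) with overlap; another probe set of it differed by -0.01 (SE 0.275). Ppp3r1, the regulatory subunit of calcineurin, differed by -0.32 (SE 0.127). The 72 oocyte-specific and maternal-effect genes had a median of -0.19, or -0.06 after quantile normalization; 64 were negative, with Brwd1, a bromodomain protein, at -0.39 (SE 0.123) and Omt2a, an oocyte maturation gene, at -0.37 (SE 0.134). Cumulus markers had a median of 0.05 and genes of other tissues one of -0.01 (0.00 and positive after quantile normalization).

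**Figure D4:**
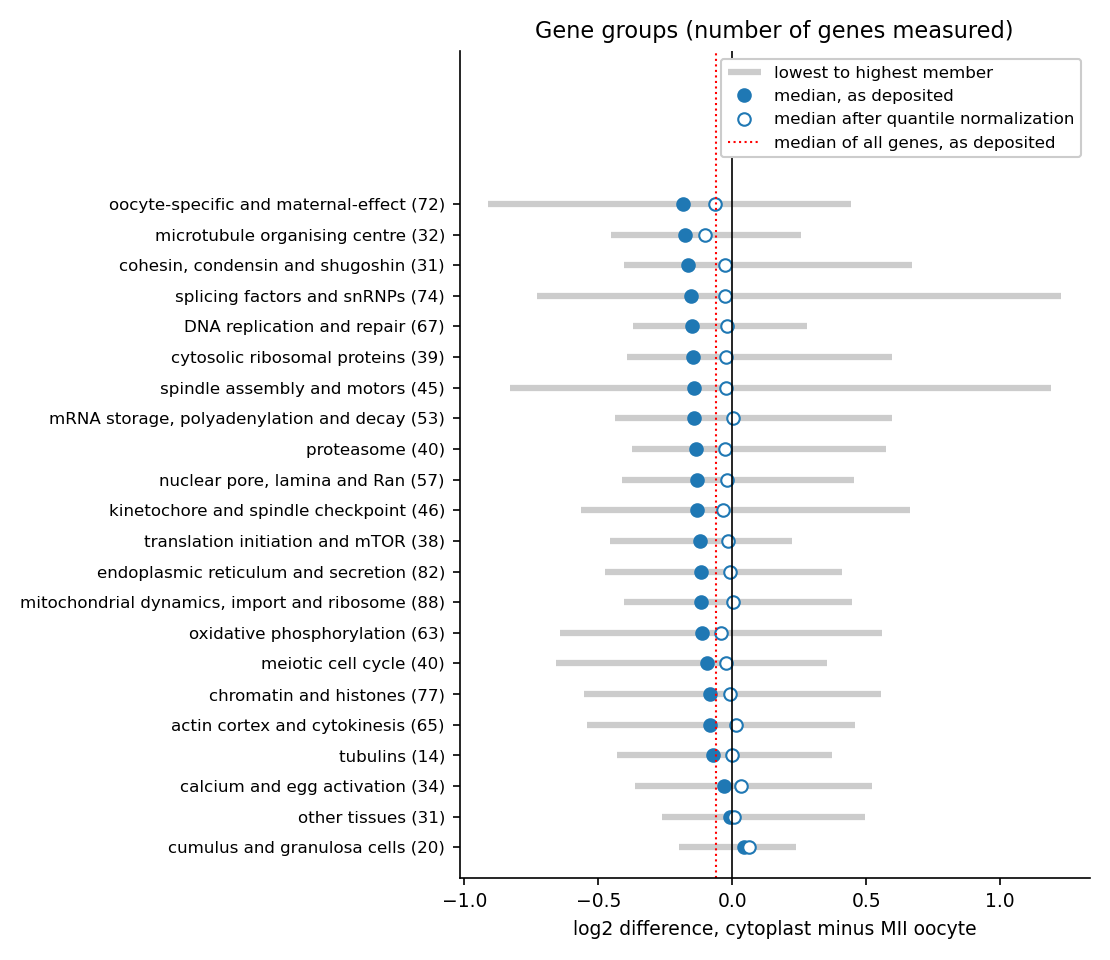
Log2 difference, cytoplast minus MII oocyte, by gene list with the number of genes measured. Grey bars run from the lowest to the highest member, filled points are medians of the values as deposited, open points medians after quantile normalization, and the dotted line is the median of all genes at -0.06; open points lie between -0.10 and 0.06.

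A further list held genes already known from these arrays to be high in the isolated spindle-chromosome complex. The 30 genes taken were picked because the spindle arrays lay above the cytoplast arrays, and the same cytoplast arrays enter the difference from the intact oocyte. Low cytoplast values therefore enter both, and the sign of their differences is no independent evidence. Of the 30, 28 were negative and 2 positive, with a median of -0.35 (-0.24 after quantile normalization, -0.45 without MII oocyte 2 and -0.20 without MII oocyte 4), 0 passed the adjusted threshold, and 19 had an interval inside 2-fold.

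Anln, anillin, which organises the contractile ring, read 3405, 2826, 3336 and 3898 in the cytoplasts and 3819, 3278 and 3948 in the MII oocytes. The groups overlapped; the difference was -0.13 (SE 0.137; 95% interval -0.43 to 0.17), beside 1.16 for the spindle against the cytoplast. Another probe set of Anln differed by -0.38 (SE 0.152) without overlap. Atad2, a chromatin ATPase, read 92.3, 109, 121 and 86.6 against 94.6, 131 and 164, a difference of -0.32 (SE 0.190) beside 2.06 for the spindle.

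Pdia6, a protein disulfide isomerase, read 320.1, 349.7, 365 and 363 against 286, 409.5 and 424. It differed by -0.08 (SE 0.150) beside 1.38 for the spindle against the cytoplast. Atrx, a chromatin remodeler, differed by -0.22 (SE 0.258) beside 1.74; its other 6 probe sets lay between -0.08 and 0.84. Cep290, a centrosomal protein, lay under the floor in both groups.

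Of the 30, 3 were lower in the cytoplast at an unadjusted p under 0.05 (limma), namely Cpeb4, Spcs2 and Sgo2a, and 1 was higher. Over all 12713 genes 477 (3.75%) were lower and 118 (0.928%) higher. The choice of the list on low cytoplast values favours calls on the lower side. Cpeb4, which controls polyadenylation of stored messages in meiosis, read 706, 666, 749.8 and 674 in the cytoplasts and 987, 910.2 and 938 in the MII oocytes. Every cytoplast lay below every MII oocyte, and the difference was -0.44 (SE 0.142; limma adjusted p = 0.926). Spcs2, a subunit of the signal peptidase, read 221, 218, 208 and 268 against 278, 308 and 283 (difference -0.35, SE 0.123), and another probe set of it, near the floor, by 0.23 (SE 0.309). Sgo2a, the shugoshin that guards centromeric cohesin, read 248, 223, 224 and 151 against 252, 269 and 299.6 (difference -0.39, SE 0.166), with cytoplast 1 just under the lowest intact oocyte.

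Kpna2, an importin alpha, read 321, 299, 382 and 355 against 315, 559.7 and 642 and so overlapped through MII oocyte 2 (difference -0.52, SE 0.238). Cenpe, the kinetochore kinesin, differed by -0.16 (SE 0.138) beside 0.93 for the spindle, and by 0.11 (SE 0.383) on a probe set near the floor. Polr2f, an RNA polymerase subunit, had a positive difference, with 521, 414, 503 and 402 in the cytoplasts against 247, 289 and 378 in the MII oocytes. Its groups did not overlap and its difference was 0.61 (SE 0.206; limma adjusted p = 0.926).

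Of the 9 genes known from these arrays to be low in the spindle, 8 were positive and 1 negative, with a median of 0.15 and 0 past the threshold. The median was -0.08 without MII oocyte 3, 0.40 without MII oocyte 2, -0.14 within the brighter arrays and 0.66 within the dimmer ones. Vipas39, a vesicle-sorting protein, read 872, 539, 536 and 499.6 in the cytoplasts and 623, 399 and 489 in the MII oocytes (difference 0.27, SE 0.221), with cytoplast 1 above all others.

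**Figure D5:**
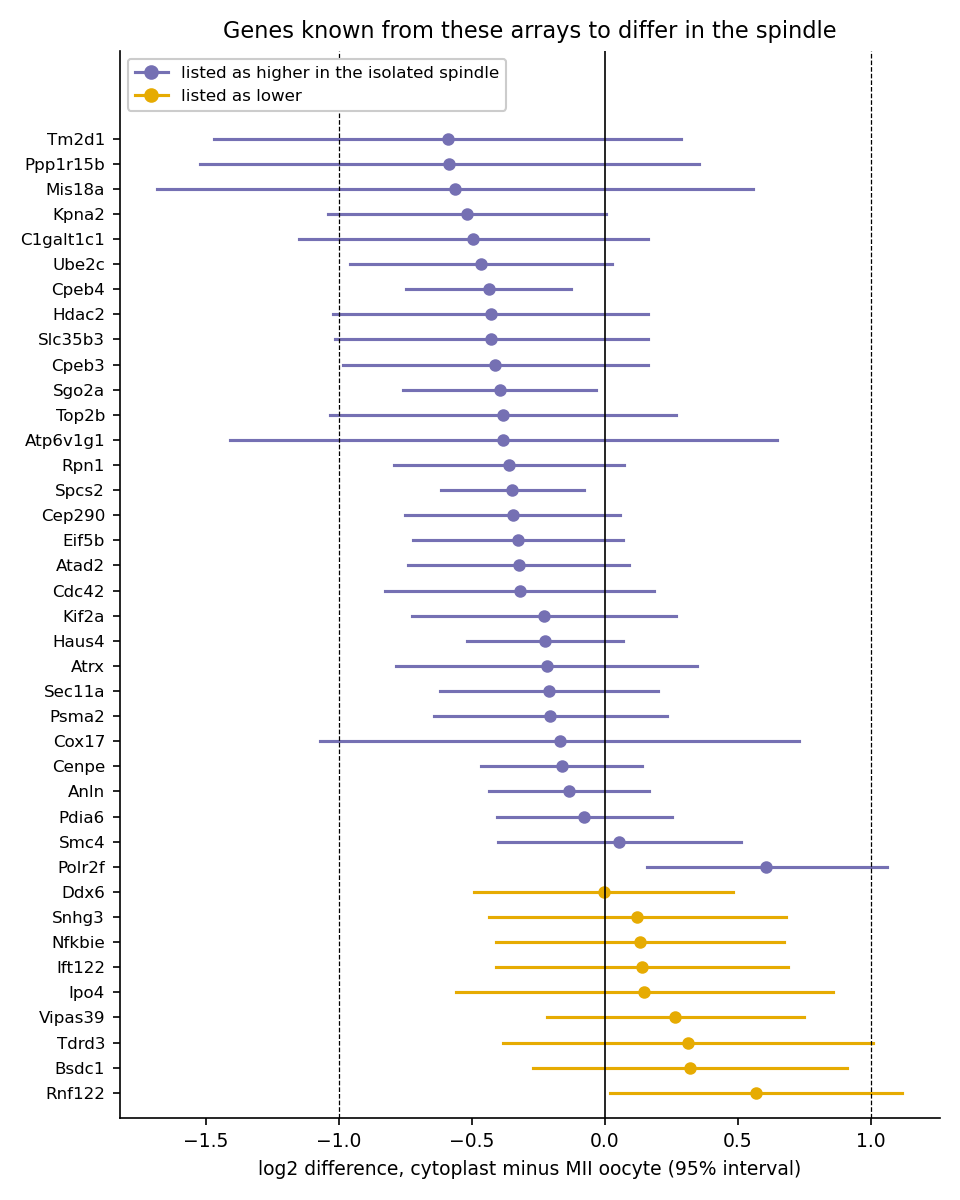
Log2 difference, cytoplast minus MII oocyte, with its 95% interval from limma, for the 30 genes listed as higher and the 9 listed as lower in the isolated spindle; dashed lines mark 2-fold. The lists were picked on arrays that include the cytoplast arrays; 28 of the 30 points lie below 0 and 8 of the 9 above, and 19 and 7 of the intervals stay inside 2-fold.

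Read separately within the brighter and the dimmer arrays, a division chosen after the data were seen, each comparison rests on a lone array of 1 group. Among the brighter arrays, with cytoplast 4 against MII oocytes 2 and 4, 0 probe sets were higher and 5 lower (0.0211%) at an adjusted p of 0.05 (limma). The lower ones, named here after their values were seen, were probe sets of Impa1, Slc39a8, Atp1b1, Rims2 and Slc25a4, each lowest on cytoplast 4 of the 7 arrays. Impa1, Atp1b1 and Rims2 lay under the level of other tissues on all 7 arrays, and Slc39a8 on most of them. Among the dimmer arrays, with cytoplasts 1 to 3 against MII oocyte 3, 31 were higher (0.131%) and 16 lower (0.0674%). Zp2 was among the latter, at -2.06 (limma adjusted p = 0.0128), through the value of 2377 on MII oocyte 3 given above; within the brighter arrays its difference was 0.22. The lone array's own deviation cannot be told apart from the difference between cytoplast and MII oocyte in these fits.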

How the data were processed

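Per the labels, at most 50 ng of total RNA a sample went through 2 rounds of cDNA synthesis, and each Affymetrix array received 10 µg of biotin-labelled cRNA. The deposited table holds linear intensity values for 45101 probe sets. RMA was named in the submitters' processing notes, with its version not stated. The deposited intensities did not have the same distribution on every array. Their 95th percentile ran from 525.8 on cytoplast 2 to 797.1 on spindle-chromosome array 3. The arrays' scanner output was not analysed here. The log2 of the deposited intensity was taken here, 64 controls were left out, and a probe set was kept if at least 3 arrays had it above their own median (23737). Genes came from the platform annotation: 34945 probe sets had 1 gene, 932 several and 9160 none, and 34754 matched the RefSeq table of GRCm38.p6. The kept probe set of highest mean among those with 1 gene stood for the gene. All 10 arrays, with a mean for each group, entered a limma fit (version 3.58.1, R 4.3.3) with default eBayes; p-values were adjusted by Benjamini-Hochberg over the 23737 probe sets, with a threshold of 0.05, and the script was tested on simulated data. The floor called the level of other tissues was, per array, the 95th percentile of 96 probe sets of genes of other tissues. A fold of a group over one wholly under that floor is a bound ("at least"), set against the floor. It concerns the means of these arrays only and leaves out their sampling error. The number of arrays, 4 against 3, limits the precision. Named genes were, in each direction, the 10 with the smallest p among those without overlap, the 3 with the smallest p of each list, fixed markers and the 2 spindle lists; the text gives a part of them. The comparison, lists and named genes were chosen with earlier results of these data known. Alternatives covered scaling, filter, samples in the fit, replicate block, moderation, an added 16 units, choice of probe set and each array left out.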

Additional observations from a re-analysis of the deposited data

Results flagged for a closer look

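Among 72 sets of 4 cytoplast values tested for a lone value by Dixon's ratio (95% critical value 0.829), 7 held 1, where chance gives about 1 in 20. H1f8 read 3437.7 on cytoplast 4 against 1265 to 1438 on the other cytoplasts. Vipas39 read 872.15 on cytoplast 1 against 499.6 to 539. Cytoplast 2 was the low array for Cenpe (2370), Nup98 (803.31) and Psma6 (834.84), whose other cytoplast values began at 2712, 949.5 and 953. Cytoplast 3 was the high array for Cenpc1 (371.3) and the mitochondrial ribosomal gene Mrps2 (529.05), whose other cytoplast values ended at 303 and 476. In both of these genes the high cytoplast value still lay below every MII oocyte value. Groups of 3 arrays were not tested in this way.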

How the results depend on the processing

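The count of 0 probe sets past the adjusted threshold held in every alternative over both groups, each array left out included. The share of intervals inside 2-fold there ran from 94.0 to 98.4 percent, and it was 91.0 within the brighter and 90.1 within the dimmer arrays alone. At unadjusted p, higher and lower probe sets numbered 520 and 426 with quantile normalization, 453 and 473 with cyclic loess, 775 and 1279 without the filter on dim probe sets, 71 and 457 with the filter at the 75th percentile, and 499 and 1176 with control level as a covariate; with brighter and dimmer arrays as a block 555 were higher. Leaving out each array in turn gave 170 to 452 higher and 438 to 1866 lower. Within the brighter arrays 713 were higher and 1647 lower at unadjusted p, with 5 probe sets and 4 genes lower past the adjusted threshold. Within the dimmer arrays 1381 were higher and 1521 lower, with 31 probe sets and 17 genes higher and 16 probe sets and 6 genes lower past the threshold. Each of these within-kind fits assumes that a lone array varies like the rest.

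Probe sets with every cytoplast below every MII oocyte numbered 462 with quantile normalization, 540 with cyclic loess and 1381 without the filter. Those with every cytoplast above numbered 652 with quantile normalization, 594 with cyclic loess, 1057 without the filter and 113 with the 75th percentile filter, under which the mean distance between a cytoplast and an MII oocyte array was 0.439. The Gapdh 3′ minus 5′ difference was 0.0553 with quantile normalization and -0.327 to 0.122 with each array left out, and the difference in control level then ran from -0.704 to 0.0208. The cause of these changes was not tested.

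Whether replicate numbers pair the samples could not be told from 3 same-numbered pairs of a cytoplast and an MII oocyte. The deviations of these pairs correlated at -0.304, 0.614 and 0.307 for numbers 2, 3 and 4, and those of unlike numbers at -0.528 to 0.404. Of 6 arrays, 3 correlated best with their own number. With the replicate block, 0 probe sets passed, and 197 were higher and 594 lower at unadjusted p.

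Of 61 single genes, 42 kept their sign throughout. Many of the 61 were named because their groups did not overlap or their p was small. A gene without overlap cannot change sign with an array left out or within either kind of array, so the 42 are no independent measure of stability. With quantile normalization the sign turned for Gdf9 (0.0084) and Pdia6 (0.086). With cyclic loess it turned for Gdf9 (0.115), Oosp1 (0.0501), Bub1b (0.0648), Cenpe (0.0221), Anln (0.0546) and Pdia6 (0.0712). With brighter and dimmer arrays as a block it turned for Gdf9 (0.0627), Bmp15 (0.0497), Oosp1 (0.0695), Mos (0.17), Bub1b (0.0735) and Tpx2 (0.12). Within the brighter arrays it turned for Gdf9 (0.18), Bmp15 (0.21), Zp1 (0.25), Zp2 (0.22), Zp3 (0.35), Nlrp5 (0.36), Mos (0.45), H1f8 (0.61), Bub1b (0.11), Aurka (0.067), Tpx2 (0.0362), Anln (0.0057), Pdia6 (0.0574), Vipas39 (-0.14), Chd4 (-0.0203) and Actb (-0.28). Within the dimmer arrays it turned for Gdf9 (0.056), Bmp15 (0.0168), Oosp1 (0.26), Mos (0.23), Bub1b (0.14) and Tpx2 (0.40). With each array left out in turn the difference ran from -0.21 to 0.036 for Gdf9, -0.35 to 0.0013 for Bub1b, -0.65 to 0.0281 for Tpx2, -0.26 to 0.0272 for Pdia6 and -0.47 to 0.0462 for Atrx.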

Other observations

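On MII oocyte 3 some genes stood well apart from the 6 other arrays; they are named here after their values were seen, from the comparison within the dimmer arrays. The probe set of Haspin, a kinase that marks centromeric chromatin in mitosis and meiosis, read 812 there against 2504 and 2732 on MII oocytes 2 and 4 and 1797 to 2633 on the cytoplasts. Csnk2a1, the catalytic subunit of casein kinase 2, read 318 against 1022 and 1121 and against 946 to 1420 on the cytoplasts. Timeless, a replication-fork protein, read 33.8 against 95.3 and 172 and against 101 to 172. In the opposite direction, Btaf1, a TATA-binding protein regulator, read 216 on MII oocyte 3 against 74.5 and 84.9 and against 48.2 to 94.5 on the cytoplasts. On the 3 arrays of the isolated spindle-chromosome complex Haspin read 1299, 1301 and 1766 and Csnk2a1 558, 616 and 514, while Timeless read 74.6, 82.6 and 148 and Btaf1 72.5, 66.8 and 78.2.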
